A study of Homo sapiens with 8 samples.

Results

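The genes described here are 32 components and target genes of the Hippo pathway, measured in BCPAP cells after knockdown of *EPB41L4A*. They were chosen by gene symbol from a list of 36 names. A probe set stood for a gene only if the platform annotation gave it exactly 1 symbol, and where a gene had more than 1 such probe set, the one with the highest mean over the 8 arrays was taken. *AMOT*, *AMOTL2*, *TAOK1* and *TGFB2* were listed only on probe sets that also carried another symbol, and they were not analysed here. All 32 remaining genes passed the filter on low values, and they form part of 22468 single-symbol genes that did so.

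The Hippo pathway is a kinase cascade that limits tissue growth in response to cell contact and mechanical cues. The kinases STK3 and STK4, with the scaffold SAV1, activate LATS1 and LATS2 and their MOB1 partners, which phosphorylate the coactivators YAP1 and WWTR1 (also called TAZ) and hold them in the cytoplasm. When the cascade is inactive, YAP1 and WWTR1 enter the nucleus and bind TEAD transcription factors, whose targets include *CCN1*, *CCN2* and *ANKRD1*. FERM-domain proteins such as NF2 and FRMD6 act upstream at the membrane, and EPB41L4A belongs to the same superfamily of FERM proteins. Since the pathway acts largely through phosphorylation and the location of proteins, transcript levels do not measure its activity.

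BCPAP is a papillary thyroid carcinoma line in which *BRAF* and *p53* are mutated, in both groups alike. In both groups the cells were transfected with Lipofectamine RNAiMAX at 75% confluence and harvested 72 h later. The control group received a non-targeting siRNA pool (si*NS*) and the other group a pool directed at *EPB41L4A* (si*EPB41L4A*), with 4 replicates of each, made at 4 separate time points. For some control samples the treatment text mentions *LRRC34* as an siRNA target, but title and source both say si*NS*, and these decided the group. Only 1 pool was used against *EPB41L4A*, so what the pool does to other transcripts cannot be told apart from what loss of *EPB41L4A* does. Total RNA was hybridized to Clariom D Human arrays, and 1 log2 value was deposited for each probe set and array. These values reached 19.92, above the limit of 16 that a 16-bit scanner signal has on the log2 scale, so a difference of 1 may not stand for a doubling of RNA. Values of different genes come from different probe sets, and only changes of the same gene between groups are compared.

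*EPB41L4A*, the target, measured 9.65, 9.22, 9.81 and 9.44 in si*NS* replicates 1 to 4 and 5.55, 5.94, 6.72 and 7.09 in the si*EPB41L4A* replicates. It fell by 3.20 on the log2 scale (SE 0.32, adjusted p = 0.000491, limma), and all 4 knockdown arrays lay below every control array. Across the 66831 probe sets tested, 1.23% rose and 1.38% fell at an adjusted p under 0.05. Thus 47.2% of the probe sets that passed were higher, and this share was 57.8% when the values were quantile-normalized again. Correlations between pairs of arrays were 0.968 to 0.981. Of 7 thyroid markers, *PAX8*, *NKX2-1* and *FOXE1* lay above the negative control probe sets in both groups, while *TG*, *TSHR*, *SLC5A5* and *DIO1*, which serve hormone synthesis and its control, did not. Of 6 epithelial markers, *EPCAM* fell by 2.43 (adjusted p = 0.00683) and *KRT7* fell by 1.42 (adjusted p = 0.00645), and *CDH1* was not above the negative controls in either group. *KRT8* (change -1.02, adjusted p = 0.109), *KRT18* (-0.55, adjusted p = 0.566) and *KRT19* (0.15, adjusted p = 0.82) did not pass. Of the markers of other cell types, all 5 for fibroblasts (such as *COL1A1*, mean 9.22 in the controls and 8.64 after knockdown), *VWF* of 3 for endothelium and *CD68* of 3 for immune cells (13.06 and 11.92) lay above the negative controls in both groups. *PTPRC*, *CD3E*, *PECAM1* and *CDH5* did not, and none of these 11 markers passed the test. *PDGFRB* (means 4.31 in the controls and 4.27 after knockdown) and *VWF* (4.45 and 4.74) lay close to the negative controls (4.21 and 4.15). The part of the fall in *EPCAM* and *KRT7* in the results below was not tested.

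TEAD factors recognize DNA with the core GGAATG, so the promoters of the members were searched for this motif on both strands, that is for GGAATG and for CATTCC. The windows ran from 250 bases before to 50 bases after each start site in RefSeq (build GRCh38.p14), and 27 of the 32 members were matched by symbol. No window was matched for *TEAD1*, *TEAD4*, *STK3*, *LIMD1* and *CCN1*. At least 1 motif was present in 10 of 27 members (37%) and in 16.7% of 27305 genes, counting for each gene its promoter with the most. At least 2 motifs were present in *CCN2*, *ANKRD1*, *NUAK2* and *WWC2*, which is 14.8% of the matched members, against 1.7% of all genes. The 250 bases before the start site are printed below for these 4 genes, and for *PTPN14*, the other member that passed the expression test and held a motif, with motifs in capitals and each sequence read 5′ to 3′ on the strand of its gene.
CCN2 (chr6:131951373-131951622, minus strand): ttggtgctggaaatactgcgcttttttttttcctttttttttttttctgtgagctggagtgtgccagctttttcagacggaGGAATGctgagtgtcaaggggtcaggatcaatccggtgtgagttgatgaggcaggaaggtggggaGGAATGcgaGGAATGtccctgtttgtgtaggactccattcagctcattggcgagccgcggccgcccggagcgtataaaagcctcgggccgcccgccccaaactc
ANKRD1 (chr10:90921088-90921337, minus strand): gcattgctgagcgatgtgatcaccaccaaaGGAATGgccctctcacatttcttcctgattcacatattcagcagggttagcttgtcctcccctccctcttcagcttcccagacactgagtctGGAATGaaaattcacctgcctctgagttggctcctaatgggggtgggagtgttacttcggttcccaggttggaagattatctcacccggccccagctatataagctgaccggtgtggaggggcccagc
NUAK2 (chr1:205321746-205321995, minus strand): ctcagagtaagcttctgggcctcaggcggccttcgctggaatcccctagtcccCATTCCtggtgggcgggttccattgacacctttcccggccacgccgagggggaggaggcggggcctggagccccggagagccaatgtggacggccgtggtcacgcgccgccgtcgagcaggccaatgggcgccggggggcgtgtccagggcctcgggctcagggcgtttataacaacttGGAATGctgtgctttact
WWC2 (chr4:183099007-183099256, plus strand): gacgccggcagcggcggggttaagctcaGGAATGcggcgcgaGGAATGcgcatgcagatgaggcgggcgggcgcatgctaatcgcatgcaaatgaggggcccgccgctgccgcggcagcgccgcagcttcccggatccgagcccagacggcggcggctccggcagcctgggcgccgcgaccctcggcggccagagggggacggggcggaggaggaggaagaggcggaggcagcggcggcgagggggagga
PTPN14 (chr1:214551603-214551852, minus strand): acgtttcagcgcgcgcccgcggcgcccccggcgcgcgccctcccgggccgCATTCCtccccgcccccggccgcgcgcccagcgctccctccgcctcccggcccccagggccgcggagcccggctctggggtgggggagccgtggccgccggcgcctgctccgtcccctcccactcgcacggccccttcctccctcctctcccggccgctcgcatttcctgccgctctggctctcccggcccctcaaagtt
Positions are counted to the left end of a motif, with -1 as the last base before the start site. *CCN2* held motifs at -169, -104 and -95, and only 45 of the 27305 genes (0.165%) held 3 or more in 1 promoter. *ANKRD1* held them at -220 and -128, *NUAK2* at -197 and -18, *WWC2* at -222 and -208, and *PTPN14* at -200. GGAATG can overlap only with itself, by 1 base, and no such overlap occurs in these 5 sequences. A single motif was found in *YAP1*, *LATS2*, *TAOK3*, *AJUBA* and *AXL*. Among the matched members that passed the expression test described next, 2 of 7 (28.6%) held a motif, and among those that did not pass it was 8 of 20 (40%). The members include genes listed as YAP/TEAD targets, such as *CCN2*, *ANKRD1* and *NUAK2*. The comparison of motif shares with all genes is therefore not independent of how the list was made. A match of letters is a description and does not show that a TEAD factor binds there.

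Knockdown was compared with control to ask which Hippo genes differed in transcript level. Of the 32 members, 7 rose (*TEAD1*, *VGLL3*, *MOB1A*, *FRMD6*, *PTPN14*, *WWC2* and *F3*), 1 fell (*TEAD2*) and 24 did not pass the test. The same 8 members passed after renewed quantile normalization and after centring each array on its median. Of these 8, 5 passed with no filter on low values, and 4 to 6 passed when 1 array was left out. Only 2 of them, *TEAD2* and *VGLL3*, passed without moderation of the variances. Over all 22468 single-symbol genes, with 1 probe set each, 2.55% rose and 2.96% fell. The change was positive in 24 members (75%), against 44.4% of all these genes, and the median change was 0.55 in the members and -0.06 in all genes. Every knockdown array lay above every control array for 10 members, where 6.52% of all genes did so, and below for 1 member, where 7.85% of all genes did so. The members were named together as a pathway, with earlier results of these data known, and are not independent of each other. These shares are therefore descriptions. In a bulk sample, a change in RNA per cell cannot be told apart from a change in the share of cells that express the gene.

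**Figure D1:**
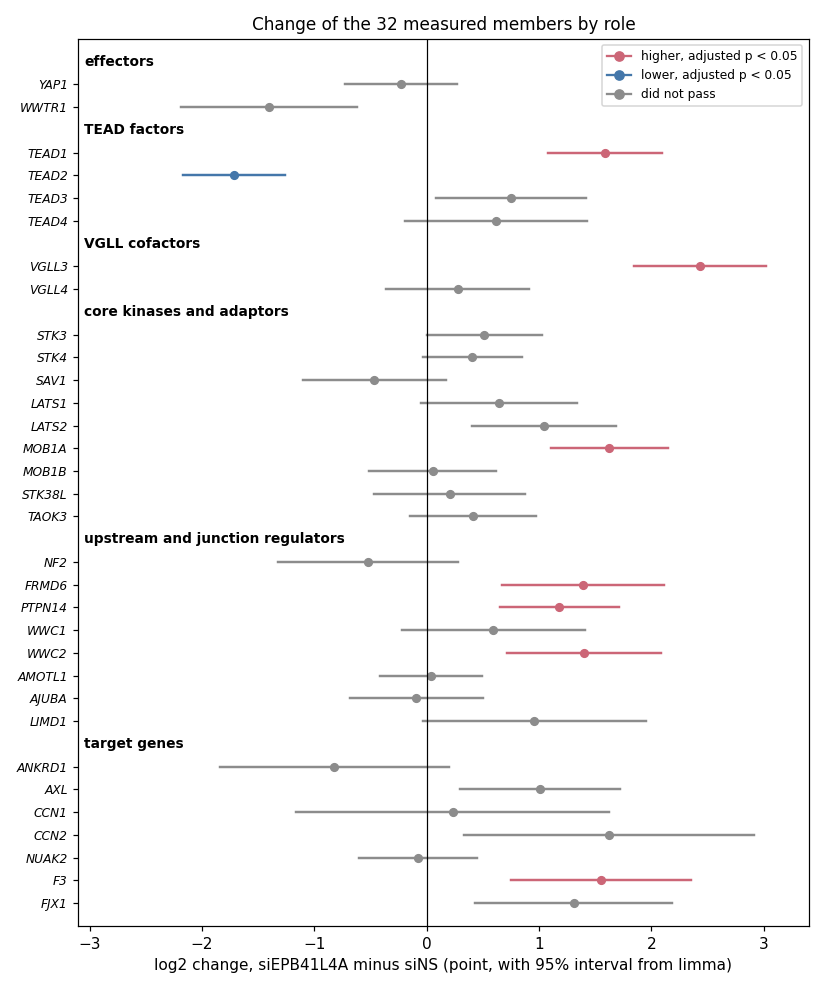
Change of each of the 32 members, grouped by role, as log2 si*EPB41L4A* minus si*NS* with its 95% interval from limma (n = 4 arrays per group). Red points rose, the blue point (*TEAD2*) fell, and grey points did not pass at an adjusted p of 0.05.

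The coactivators themselves did not pass in the fit used here, which left out the replicate numbers. With these numbers as a block *WWTR1* passed and *YAP1* did not, as described under the dependence on processing. *YAP1* measured 12.53, 11.88, 12.12 and 11.65 in si*NS* replicates 1 to 4 and 11.88, 11.78, 11.70 and 11.89 with si*EPB41L4A*. The groups overlapped, and the change was -0.23 (95% interval -0.72 to 0.27, adjusted p = 0.748). *WWTR1* measured 10.21, 9.87, 10.55 and 11.20 in the controls and 8.72, 8.88, 8.57 and 10.06 after knockdown. Knockdown replicates 1 to 3 lay below every control array, while replicate 4 lay within the control range. The change of *WWTR1* was -1.40 (95% interval -2.19 to -0.62, adjusted p = 0.0663), and an exact two-sided permutation test gave p = 0.0571. Without si*EPB41L4A* replicate 4 the change of *WWTR1* passed, at -1.74 with an adjusted p of 0.0167, and without any of the other 7 arrays its adjusted p was 0.0710 to 0.170.

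Of the TEAD factors, through which both coactivators reach DNA, *TEAD1* rose, *TEAD2* fell and the other two did not pass. *TEAD1* measured 10.19, 10.72, 10.74 and 9.92 in si*NS* arrays and 11.98, 12.03, 11.89 and 12.02 in si*EPB41L4A* arrays. The knockdown arrays were tightly grouped above all controls, with means of 10.39 ± 0.41 and 11.98 ± 0.06 (SD, n = 4), a rise of 1.59 (SE 0.23, adjusted p = 0.00416). *TEAD2* measured 11.57, 11.58, 11.72 and 11.59 in the controls and 10.12, 9.95, 9.50 and 10.01 after knockdown. Here every knockdown array lay below every control, and the means of 11.61 ± 0.07 and 9.90 ± 0.27 (SD, n = 4) gave a fall (log2 change -1.72, SE 0.21, adjusted p = 0.00134). Within an array, the value of *TEAD1* minus that of *TEAD2* was -1.68 to -0.86 in the controls and 1.86 to 2.39 after knockdown. The zero of that difference has no meaning, since the probe sets differ, but it moved by 3.31 and its ranges did not overlap, the largest movement among 10 pairs of related members. These pairs were formed after the values had been seen and were not tested.

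*TEAD3* measured 5.88, 6.14, 6.92 and 6.89 in the controls and 6.69, 7.81, 7.26 and 7.07 after knockdown, a change of 0.75 (adjusted p = 0.285). *TEAD4* measured 4.22, 4.55, 4.80 and 4.91 in the controls, close to the negative controls (group mean 4.21), and 4.62, 5.15, 4.68 and 6.49 after knockdown. Its groups overlapped and only knockdown replicate 4 stood well above the rest (change 0.62, adjusted p = 0.521).

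VGLL proteins are cofactors that bind TEAD factors at a surface shared with the coactivators. *VGLL3* measured 7.42, 7.53, 7.01 and 6.95 in si*NS* replicates and 9.57, 10.13, 9.01 and 9.92 in si*EPB41L4A* replicates. All knockdown arrays were far above the controls, and with means of 7.23 ± 0.29 and 9.66 ± 0.49 (SD, n = 4) the rise of 2.43 was the largest change of any member in either direction (SE 0.27, adjusted p = 0.000706). *VGLL4*, which competes with YAP1 for TEAD factors, ranged from 7.44 to 8.82 in the controls and from 8.03 to 8.66 after knockdown (change 0.28, adjusted p = 0.765).

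**Figure D2:**
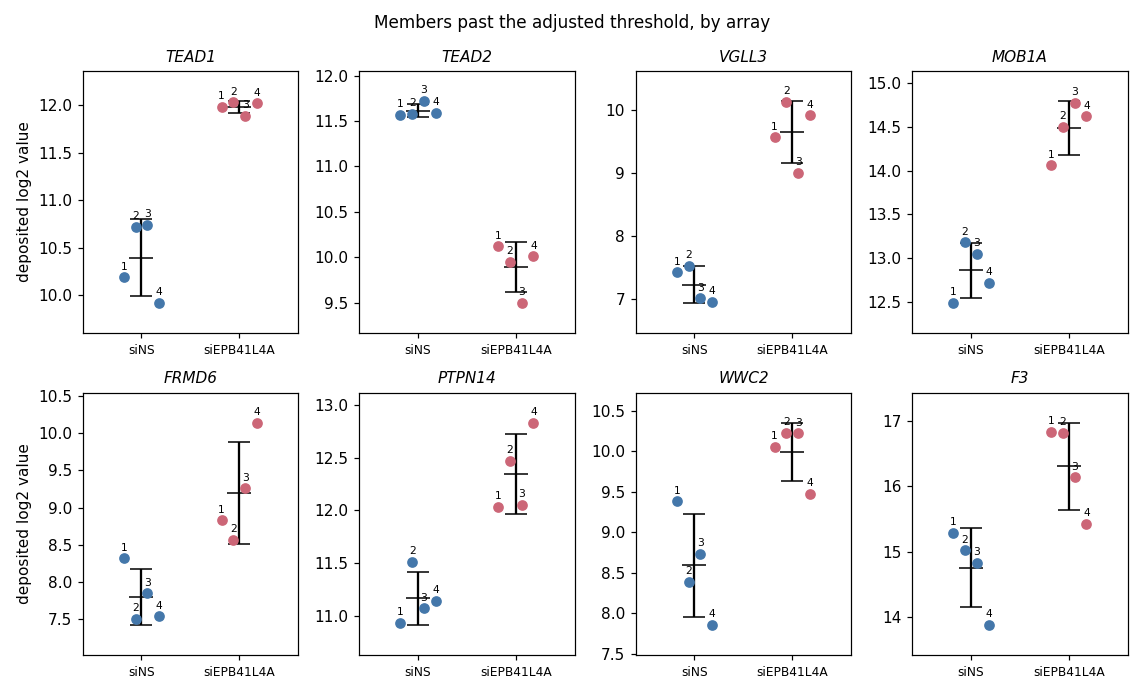
Deposited log2 values by array for the 8 members that passed the test, with array numbers beside the points and the mean and SD (n = 4) of each group as lines. The 2 groups do not overlap in any panel, and *TEAD2* is the only one that is lower after knockdown. The vertical axes do not start at 0 and differ between panels.

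Of the 9 core kinases and adaptors, 8 had a positive change, with a median of 0.41 over the 9, and 1 passed. A positive change was found in 44.4% of all single-symbol genes, of which 2.55% rose and 2.96% fell. *MOB1A*, whose product binds and activates the LATS kinases, measured 12.49, 13.18, 13.05 and 12.72 in the controls and 14.06, 14.50, 14.77 and 14.62 after knockdown. The groups were well separated, with means of 12.86 ± 0.31 and 14.49 ± 0.31 (SD, n = 4) and a rise of 1.63 (SE 0.24, adjusted p = 0.00413). Its paralog *MOB1B* was at 10.03 to 10.98 in the controls and 10.20 to 10.96 after knockdown (change 0.05, 95% interval -0.51 to 0.61, adjusted p = 0.962). *LATS2*, a kinase of YAP1 that is itself a known target of YAP1, measured 7.30, 5.88, 7.04 and 6.99 in the controls and 7.63, 7.99, 7.79 and 7.98 after knockdown. Its groups did not overlap, but control replicate 2 was low, and the change of 1.04 did not pass (SE 0.29, adjusted p = 0.0945). The groups also did not overlap for *STK4*, at 9.26 to 9.41 in the controls and 9.59 to 10.08 after knockdown, with a change of 0.41 that did not pass (adjusted p = 0.406).

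The other core genes overlapped between groups. *LATS1* had a change of 0.65 (adjusted p = 0.403) and *STK3* one of 0.51 (adjusted p = 0.352). *TAOK3*, of a family of kinases that activate STK3 and STK4, had a change of 0.41 (adjusted p = 0.544), and *STK38L*, a kinase of the same family as LATS1 and LATS2, one of 0.21 (adjusted p = 0.850). *SAV1* was the only core member with a negative change, at -0.47 (adjusted p = 0.544), and its other single-symbol probe set gave -0.73 (adjusted p = 0.396).

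Among 8 upstream and junction regulators, 3 rose and none fell, where 2.55% and 2.96% of all single-symbol genes did so. The median change of these 8 was 0.78. *PTPN14*, a phosphatase that binds YAP1 and keeps it out of the nucleus, measured 10.93, 11.51, 11.07 and 11.14 in si*NS* arrays and 12.03, 12.47, 12.05 and 12.83 in si*EPB41L4A* arrays. It rose by 1.18 without overlap (SE 0.24, adjusted p = 0.0245), from 11.16 ± 0.25 to 12.34 ± 0.38 (SD, n = 4). *WWC2*, a paralog of the scaffold KIBRA that promotes LATS activity, measured 9.38, 8.39, 8.73 and 7.86 in the controls and 10.05, 10.23, 10.22 and 9.47 after knockdown. Control replicate 1 and knockdown replicate 4 nearly met, and the rise was 1.40 (SE 0.31, adjusted p = 0.0370). *FRMD6*, a FERM protein related to Expanded of *Drosophila*, measured 8.32, 7.51, 7.85 and 7.54 in the controls and 8.83, 8.57, 9.26 and 10.14 after knockdown. Knockdown replicate 4 was the highest, and the rise of 1.39 lay close to the threshold (SE 0.33, adjusted p = 0.0477).

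These 3 calls were sensitive to single arrays. *PTPN14* kept its call without si*NS* replicate 2 or si*EPB41L4A* replicate 1 or 3, and its adjusted p was 0.0503 to 0.0785 without any of the other 5. *WWC2* kept it without si*NS* replicate 1 or si*EPB41L4A* replicate 4, and had an adjusted p of 0.0720 to 0.113 without any of the other 6. *FRMD6* kept it only without si*EPB41L4A* replicate 2 (adjusted p = 0.0486), and had 0.0546 to 0.132 without any of the other 7. By contrast *TEAD1*, *TEAD2*, *VGLL3* and *MOB1A* passed in all 8 fits that left out 1 array, with adjusted p values of at most 0.0186.

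**Figure D3:**
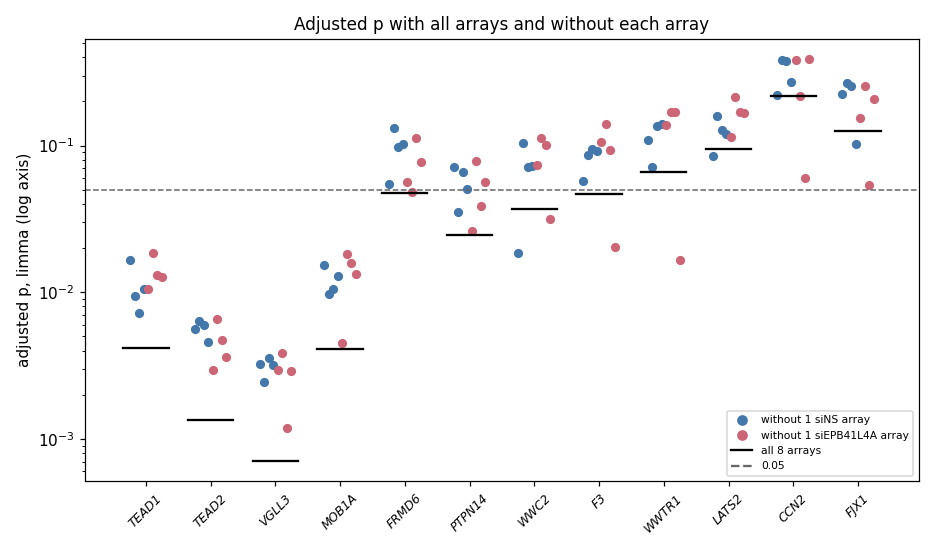
Adjusted p from limma on a log axis for 12 members, with all 8 arrays (black bars) and without each array in turn (blue points without 1 si*NS* array, red points without 1 si*EPB41L4A* array). The dashed line is 0.05, and *TEAD1*, *TEAD2*, *VGLL3* and *MOB1A* stay below it in every fit, while *WWTR1* falls below it only without si*EPB41L4A* replicate 4.

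Of the remaining regulators, *NF2* encodes the FERM protein merlin, which recruits LATS kinases to the membrane. It had a change of -0.52 (95% interval -1.32 to 0.28, adjusted p = 0.611), with 8.94 to 10.28 in the controls and 8.19 to 9.80 after knockdown. *WWC1*, which encodes KIBRA, had a change of 0.60 (adjusted p = 0.545). *AMOTL1*, an angiomotin-like protein that binds YAP1, had a change of 0.04 (95% interval -0.41 to 0.49, adjusted p = 0.967), and its other probe set one of 0.07. *LIMD1* and *AJUBA* encode LIM proteins that restrain LATS kinases at junctions. *LIMD1* had a change of 0.96 with overlap between groups (adjusted p = 0.378), and *AJUBA* one of -0.09 (adjusted p = 0.934).

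**Figure D4:**
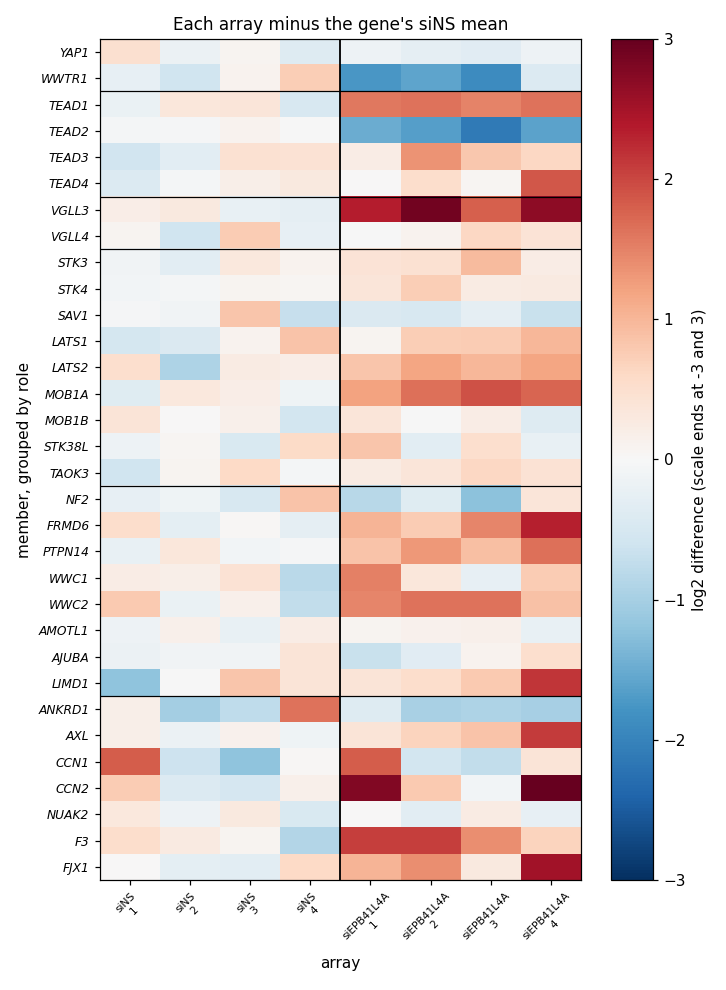
Each array's log2 value minus the mean of the 4 si*NS* arrays, for the 32 members in rows, grouped by role, with si*NS* arrays to the left of the black line and si*EPB41L4A* arrays to the right. Red is higher and blue lower than the control mean. *VGLL3*, *TEAD1* and *MOB1A* are red in all 4 knockdown arrays and *TEAD2* is blue in all 4, while *CCN2* is red mainly in replicates 1 and 4.

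Of 7 target genes, 1 rose, none fell, 5 had a positive change, and the median change was 1.01. Among all single-symbol genes, 2.55% rose, 2.96% fell and 44.4% had a positive change. *F3*, which encodes tissue factor, the initiator of coagulation, measured 15.29, 15.02, 14.83 and 13.88 in the controls and 16.84, 16.82, 16.14 and 15.43 after knockdown. The groups did not overlap, and *F3* rose by 1.55 (SE 0.37, adjusted p = 0.0465), from 14.75 ± 0.61 to 16.31 ± 0.67 (SD, n = 4). The call of *F3* held without si*EPB41L4A* replicate 4 (adjusted p = 0.0205) and was lost without any of the other 7 arrays (adjusted p = 0.0576 to 0.140).

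*CCN2*, a matricellular protein and a widely used reporter of YAP1 activity, measured 8.18, 7.03, 6.92 and 7.59 in si*NS* replicates and 10.21, 8.22, 7.36 and 10.41 in si*EPB41L4A* replicates. Knockdown replicates 1 and 4 were high, replicate 2 was just above the highest control, and replicate 3 lay within the control range. Its change of 1.62 (SE 0.59, 95% interval 0.33 to 2.91) did not pass (adjusted p = 0.217). *CCN1*, of the same family, measured 13.11, 10.68, 10.10 and 11.34 in the controls and 13.11, 10.77, 10.58 and 11.71 after knockdown. Replicate 1 was the highest array of both groups, and the change was 0.23 with a wide interval (95% interval -1.16 to 1.62, adjusted p = 0.929). *ANKRD1*, a nuclear ankyrin-repeat protein, measured 5.17, 3.99, 4.24 and 6.63 in the controls and 4.61, 4.04, 4.07 and 4.01 after knockdown. Only control replicates 1 and 4 and knockdown replicate 1 stood clear of the negative controls, whose means by array were 4.05 to 4.29, and the change of -0.82 did not pass (adjusted p = 0.487). Without si*NS* replicate 4 the change of *ANKRD1* was -0.28 (adjusted p = 0.761), and without any of the other 7 arrays it was -1.16 to -0.76. None of the canonical targets *CCN1*, *CCN2* and *ANKRD1* passed in the fit used here, and of them only *CCN2* passed with replicate numbers as a block. Their promoters are among those printed above, except that of *CCN1*.

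*AXL*, a receptor tyrosine kinase, measured 13.64, 13.31, 13.60 and 13.34 in the controls and 13.87, 14.15, 14.33 and 15.57 after knockdown. Its groups did not overlap, yet replicate 4 was far above the other knockdown arrays and the change of 1.01 did not pass (SE 0.33, adjusted p = 0.152). *FJX1*, the human homolog of *four-jointed* in *Drosophila*, measured 7.25, 6.94, 6.92 and 7.84 in the controls and 8.26, 8.64, 7.53 and 9.75 after knockdown. Replicate 3 overlapped with the controls and the change of 1.31 did not pass (SE 0.40, adjusted p = 0.126). *NUAK2*, an AMPK-related kinase, was at 8.57 to 9.34 in the controls and 8.71 to 9.26 after knockdown (change -0.08, 95% interval -0.60 to 0.45, adjusted p = 0.939).

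**Figure D5:**
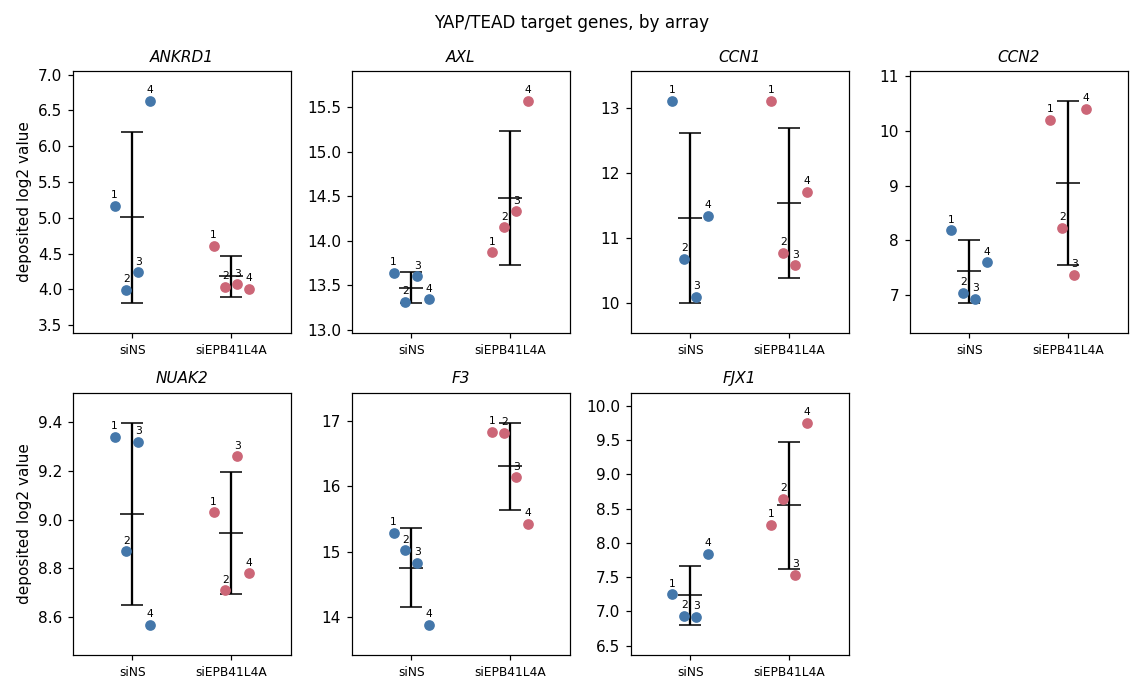
Deposited log2 values by array for the 7 target genes, with array numbers beside the points and the mean and SD (n = 4) of each group as lines. Groups are apart for *F3* and *AXL*, *CCN2* spreads from 7.36 to 10.41 after knockdown, and *CCN1* and *NUAK2* overlap. The vertical axes do not start at 0 and differ between panels.

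Summarized by array, the median of the 32 differences from the control mean was 0.38, 0.50, 0.40 and 0.56 in si*EPB41L4A* replicates 1 to 4, and -0.12 to 0.11 in the si*NS* arrays. Of the knockdown arrays, replicate 4 was the highest for 12 of the 32 members and the others for 6 or 7 each. It was also the array with the highest values of *AXL*, *CCN2*, *FJX1*, *FRMD6* and *PTPN14*, and with the highest remaining level of *EPB41L4A* (7.09).

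Further genes of the pathway and further targets were then counted. Of 39 further pathway genes (kinases, polarity proteins, RASSF proteins, and subunits of the STRIPAK phosphatase complex), 36 were measured and 28 tested. Of these 28, 2 fell and none rose, where 2.96% and 2.55% of all single-symbol genes did so. The median change was -0.22 in the 28 and -0.06 in all single-symbol genes. After renewed quantile normalization, however, 2 of the further pathway genes were higher and 1 lower. Before adjustment, p from limma was under 0.05 for 5 of the 28 with positive and 10 with negative changes. Of all single-symbol genes, 9.52% and 12.7% met that limit. Without moderation of the variances, none of the 28 passed in either direction at an adjusted p under 0.05. *RASSF4*, of a family that binds STK3 and STK4, measured 9.61, 10.31, 10.91 and 9.77 in the controls and 8.68, 8.63, 8.99 and 8.13 after knockdown, without overlap. The change was -1.54 (adjusted p = 0.0198), and it did not pass without si*NS* replicate 2 or si*EPB41L4A* replicate 2 or 4 (adjusted p = 0.0501 to 0.0625). *CSNK1D*, a casein kinase that marks YAP1 for degradation after LATS has acted, fell from 13.00 ± 0.25 to 12.01 ± 0.34 (SD, n = 4; adjusted p = 0.0464). The call of *CSNK1D* was lost without any 1 of the 8 arrays (adjusted p = 0.0535 to 0.120).

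Of 11 further genes of a published YAP/TEAD signature, 10 were measured and 9 tested. *CRIM1* and *NT5E* rose, *MYOF* fell, and the median change was -0.29. Over all single-symbol genes, 2.55% rose and 2.96% fell, and the median change was -0.06. *CRIM1*, a transmembrane regulator of BMP signaling, measured 11.69, 11.69, 10.86 and 11.38 in the controls and 13.06, 13.41, 12.73 and 13.65 after knockdown, a rise of 1.81 without overlap (adjusted p = 0.00437). *NT5E*, the ectonucleotidase CD73, measured 16.59, 16.48, 17.30 and 15.01 in the controls and 19.14, 19.24, 19.49 and 18.62 after knockdown, a rise of 2.78 (adjusted p = 0.00382). The knockdown values of *NT5E* lie near the top of the scale (19.79 to 19.92 by array), where differences may be compressed. *MYOF*, a ferlin of the plasma membrane, measured 14.74, 14.65, 14.79 and 14.87 in the controls and 13.26, 13.67, 13.90 and 13.66 after knockdown, all below the controls (log2 change -1.14, adjusted p = 0.0136). All 3 calls held in each of the 8 fits without 1 array. Thus the 2 lists of further genes had negative medians, where the 32 members had a positive one; the difference between the lists was not tested.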

How the data were processed

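Total RNA from 4 si*NS* and 4 si*EPB41L4A* cultures of BCPAP cells was hybridized to Clariom D Human arrays. The log2 values that the authors deposited come from RMA in Affymetrix Expression Console, 1 for each probe set on an array. For the software version and the genome build, the entry is "not given in the sources used here". These values were used as they stand. Nothing in the table tells array batches, so a batch that coincided with the groups could not be told apart from the knockdown. The 2995 control rows of the table were left out of the tests. Probe sets entered the test when they exceeded the median of the array on 4 or more of the 8 arrays. Arrays give no read depth, so their number limits the precision.

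Differences were fitted by lmFit and eBayes (limma 3.58.1, R 4.3.3) with no block, and p values from the 66831 probe sets were adjusted together by Benjamini-Hochberg and called under 0.05. Two-sided exact permutation tests, which cannot go below p = 0.0286 with 4 against 4, were added for single genes. Members are named in full, with values by array for those that passed, for the coactivators, the TEAD factors and the canonical targets, and for a few others (*LATS2*, *AXL*, *FJX1*) chosen after their values were seen. Further genes are named where they passed the test, apart from *STRN*, *STRN4* and *DLG5*, which did not pass and were picked after their values had been seen. Antisense transcripts of members are named under their own symbols. The members and lists were chosen with earlier results of these data known. Promoters were matched by symbol to RefSeq (GRCh38.p14).

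The labels number the replicates of both groups 1 to 4 without saying which were made together. They were not taken as pairs. Alternatives were other filters, a replicate block, renewed quantile normalization, median centring, a trended prior, array weights, the Student test, probe set means per gene, other thresholds and leaving out each array. Fits with 1 tested probe set per gene and without both arrays of replicate 4 were added after the values were seen.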

Additional observations from a re-analysis of the deposited data

Results flagged for a closer look

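In each group of 4 arrays, the highest or lowest value of a member was called apart when its gap to the nearest value took up more of the group's range than Dixon's critical value allows. This held in 2 of 64 groups, and chance alone flags about 1 in 20. *AJUBA* measured 10.64 in si*NS* replicate 4, where the nearest of the other 3 control arrays was at 10.14. *ANKRD1* measured 4.61 in si*EPB41L4A* replicate 1, where the other 3 knockdown arrays were at 4.01 to 4.07, within the range of the negative controls or just below it.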

How the results depend on the processing

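Over the 32 members and all alternatives, 549 values kept their direction and side of the threshold, 37 lost the threshold, 7 gained it and 14 changed sign. *TEAD2* and *VGLL3* passed under every alternative, and *TEAD1* and *MOB1A* under all but the Student test (adjusted p = 0.0513 and 0.0555). The count of members that rose, 7, was 4 with no filter, 1 with the Student test without moderation, 3 at an unadjusted p under 0.0001 with a fold over 2, and 3 to 5 without 1 array or both arrays of replicate 4. The count that fell, 1, was 2 with the filter at the 75th percentile, with 1 tested probe set per gene, at an adjusted p under 0.1 and without both arrays of replicate 4, and 1 to 2 without 1 array, the gain being *WWTR1*. With a replicate block, 2 members fell and 9 rose, as *WWTR1* (adjusted p = 0.00896), *CCN2* (0.0313) and *FJX1* (0.0206) joined the 8 that passed without it, and it changed no other call of a member. Deviations from the group means correlated at 0.228, 0.0746, 0.201 and 0.385 between arrays of equal number. As 1 of these is under 0.1, the numbers were not taken as pairs, although all 8 arrays correlated best with their own number in the other group, a hint from the data and not from the design. Over other settings that kept all arrays, the adjusted p reached 0.274 for *WWTR1*, 0.496 for *CCN2* and 0.380 for *FJX1*. All tested probe sets gave 824 higher and 923 lower. These were 1436 and 1740 with the replicate block, 158 and 154 with the Student test, 1314 and 1604 at an adjusted p under 0.1, 312 and 277 at the strict limits, and 420 to 729 and 387 to 926 without 1 array. Of the further pathway genes, 0 rose and 2 fell. The counts higher were 2 with the 75th percentile filter, 3 with the replicate block, 2 after renewed quantile normalization, 3 with 1 tested probe set per gene, 3 at an adjusted p under 0.1 and 0 to 1 without 1 array. The counts lower were 1 with no filter, 5 with the block, 1 after renewed normalization, 0 with the Student test, 4 with 1 tested probe set per gene, 1 without both arrays of replicate 4, 5 at an adjusted p under 0.1, 0 at the strict limits and 0 to 3 without 1 array. Of the further targets, 2 rose and 1 fell, with 0 higher under the Student test, and 2 lower with the block, 0 without both arrays of replicate 4, 0 at the strict limits and 1 without any 1 array. The cause of these shifts was not tested. The median change of the members, 0.55, was 0.47 to 0.65 without 1 array. Changes that passed no test turned sign when arrays were left out, and ranged from -0.13 to 0.20 for *MOB1B*, -0.0035 to 0.54 for *STK38L*, -0.0326 to 0.193 for *AMOTL1*, -0.29 to 0.10 for *AJUBA*, -0.29 to 0.83 for *CCN1* and -0.229 to 0.0271 for *NUAK2*. The signals of *ANKRD1* and *TEAD4* lay near the negative controls, which limits what their values can show.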

Other observations

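Antisense transcripts of the members were listed under symbols of their own for 7 names, of which 3 were tested and none passed. *LIMD1-AS1* measured 3.63, 4.52, 4.11 and 5.14 in si*NS* replicates 1 to 4 and 5.62, 5.99, 5.37 and 5.35 in the si*EPB41L4A* replicates. The groups did not overlap, with a change of 1.24 (95% interval 0.56 to 1.91, adjusted p = 0.0586), beside a change of 0.96 for *LIMD1* itself. *WWC2-AS1* had a change of 0.62 (adjusted p = 0.358) and *FRMD6-AS1* one of -0.09 (adjusted p = 0.911). *FRMD6-AS2*, *WWC2-AS2*, *WWTR1-AS1* and *TGFB2-AS1* lay below the filter on low values.

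Several further pathway genes had values in both directions without overlap between groups and without passing the test. Of the 28 tested, every knockdown array lay above every control array for 5 and below for 5, the latter including the 2 that passed. Over all single-symbol genes, these shares were 6.52% and 7.85%. The STRIPAK subunit *STRN* measured 9.81 to 10.48 in the controls and 10.85 to 11.41 after knockdown (change 0.90, adjusted p = 0.0611), while its paralog *STRN4* measured 8.91 to 10.09 and 7.96 to 8.72 (change -1.15, adjusted p = 0.0578). The polarity gene *DLG5* measured 6.37 to 6.73 in the controls and 6.89 to 7.91 after knockdown (change 0.96, adjusted p = 0.0712). These genes were picked after their values had been seen.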
